A study of Mus musculus with 8 samples.

Results

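Cytosolic ribosomal proteins are the protein subunits of the ribosomes that translate most of a cell's mRNAs. The genes described here are those whose symbol is Rpl or Rps followed by a number, with an optional letter a, l, x or y, plus Rplp0, Rplp1, Rplp2 and Rpsa. Pseudogene symbols and the Rps6k kinases were left out. Of the 19938 genes with a probe set of their own on the arrays, 59 met this rule, 37 of the large subunit (Rpl) and 22 of the small subunit (Rps). Where a gene had several probe sets, the one with the highest mean level stands for it. A further 17 ribosomal protein genes that the rule would match, among them Rpl3, Rpl11 and Rps27, occurred only on probe sets shared with other symbols and were not measured here.

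Ribosomal protein genes are active in every growing cell, and their products are needed in equal amounts, since a ribosome holds a single copy of almost every one. Their mRNAs carry a run of pyrimidines at the 5′ end, through which mTOR signalling and the RNA-binding protein Larp1 control how well they are translated. Much of their regulation therefore takes place in translation, which an array of mRNA levels does not record, and Myc raises their transcription in dividing cells.

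Gene expression was measured in bead-purified adipose precursors (APs), the stromal cells that give rise to adipocytes. The 4 groups were viAPs of mice on a high-fat diet (HFD) and viAPs of mice on a standard diet (SD), both from visceral white fat, and scAPs of mice on HFD and scAPs of mice on SD, both from inguinal subcutaneous fat. All mice were C57BL/6J, 7 to 8 weeks of age, and feeding lasted 3 days. Cells were depleted of CD45- and CD31-positive cells, selected for Sca-1 and lysed without culture. Each group had 2 Affymetrix Mouse Gene 1.0 ST arrays, every one hybridised with a pool of RNA of 3 mice, so every p-value reflects the spread between pools. Arrays are named by group and by the number, 1 to 8, in their label. Levels are log2 of the deposited intensity, a difference of 1 is a 2-fold change, and a change is HFD minus SD unless a depot comparison is named. A gene was called at a limma adjusted p under 0.05, adjusted over all 21789 probe sets with 1 symbol.

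Of 8 precursor markers 7 lay above log2 7 on at least 3 arrays, among them Pdgfra with 11.01 to 11.56, and Dlk1 did not. Their summed intensity was 13803 and 13424 in HFD viAPs against 8068 and 10522 in SD viAPs, and 15566 and 16225 in HFD scAPs against 15415 and 12003 in SD scAPs, so both HFD pairs lay above their SD pairs. Dpp4, a marker of early precursors, ran from 8.55 on SD viAP 3 to 11.41 on SD scAP 1. Of 5 leukocyte and 3 mesothelial markers none met that level, but both sums were highest on SD viAP 3, with 395 (246 to 307 elsewhere) and 344 (148 to 248 elsewhere). The summed intensity of 5 endothelial markers, 1 of them above log2 7, was 1052 and 992 on the HFD scAP arrays and 248 to 403 on the other 6. The part of these cells in the results was not tested. SD viAP 4 stood closer to SD scAP 2 (r = 0.988 across probe sets) than to its own partner SD viAP 3 (r = 0.980). The medians and counts of the ribosomal protein genes that rest on SD viAP, and the changes that moved most, are therefore given without SD viAP 4 too. SD viAP 3 in turn stood closer to HFD viAP 6 (r = 0.9825) than to SD viAP 4. Values without SD viAP 3 are given only among the results with 1 array left out. In RNA from many cells, a change in the make-up of the cells and a change in RNA per cell cannot be told apart.

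A pyrimidine-rich stretch near the transcription start is the sequence feature these genes are known to share. The windows of 5 genes to which the results return are printed to show where 4 short pyrimidine words were found. A window without these words can still hold such a stretch in other letters, or the stretch can lie beyond its ends. The windows come from RefSeq promoters on GRCm38.p6 and run from 50 bases before the annotated start to 50 bases from it, 5′ to 3′ on the gene's strand. Capitals mark 4 pyrimidine words on the gene's strand, which are CTCTTT and also CTTTCC and likewise CTTTTC as well as CTTCCT, and the ETS-type motif CCGGAAG on either strand.
Rps3: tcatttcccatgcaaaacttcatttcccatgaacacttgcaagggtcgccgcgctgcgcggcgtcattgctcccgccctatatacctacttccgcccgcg
Rps19: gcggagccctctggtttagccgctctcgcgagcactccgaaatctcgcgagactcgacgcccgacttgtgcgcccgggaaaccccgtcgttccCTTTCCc
Rps6: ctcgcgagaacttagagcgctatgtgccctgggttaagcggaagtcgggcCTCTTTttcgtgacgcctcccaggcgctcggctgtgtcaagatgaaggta
Rplp0: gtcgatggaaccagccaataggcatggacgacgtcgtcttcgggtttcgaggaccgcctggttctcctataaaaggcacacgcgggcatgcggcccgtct
Rpl27a: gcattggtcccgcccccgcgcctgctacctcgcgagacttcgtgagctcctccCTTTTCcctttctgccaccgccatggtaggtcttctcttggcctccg
The Rps3 window lies at chr7:99483660-99483759 (minus strand), that of Rps19 at chr7:24884542-24884641 (plus, the first of 3 listed starts), that of Rps6 at chr4:86857318-86857417 (minus), that of Rplp0 at chr5:115559417-115559516 (plus) and that of Rpl27a at chr7:109519145-109519244 (plus). The pyrimidine letters occurred in the windows of Rps19, Rps6 and Rpl27a, and none of the searched letters in those of Rps3 and Rplp0. Promoters were listed for 47 of the 59 genes, 56 windows in all. On the gene's strand the pyrimidine letters were found in 60.7% of the 56 windows and in 17.1% of all 32851 listed promoters, and on the opposite strand in 8.9% of the 56 and in 17.2% of all. CCGGAAG was found in 10.7% of the 56 and in 2.8% of all on the gene's strand, and in 5.4% and 2.7% on the opposite strand. The 4 pyrimidine words can overlap one another, and CTTCCT shares 5 letters with the reverse of CCGGAAG. Windows of the same gene with several starts can overlap.

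Most ribosomal protein probe sets were bright. Of the 59, 54 lay above log2 7 on at least 3 arrays, and 45 (76.3%) were among the 2179 brightest of the 21789 probe sets. Brightness depends on the probes as well as on the mRNA, so it sets no order of mRNA levels between genes. The brightest were Rpl21 with a mean of 12.77, Rpl10 with 12.48, Rplp0 with 12.12, Rps12 with 12.04 and Rpl28 with 11.96. The dimmest were Rpl3l with 3.99, Rpl39l with 4.39, Rpl10l with 4.45, Rpl30 with 5.89 and Rpl12 with 6.66. Rpl3l is the striated muscle form of Rpl3, and Rpl10l and Rpl39l are forms known from testis. Rpl3l, Rpl39l and Rpl10l lay at percentiles 12.05, 18.39 and 18.81 of all probe sets. Whether their mRNAs were measured is not known, and their ranges and changes below carry this limit.

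The levels of most of these genes moved little over the 8 arrays. The range, the highest minus the lowest array, ran from 0.28 for Rpl3l to 1.30 for Rpl39l, both dim. Its median was 0.58 over the 59 genes. It was 0.60 over all probe sets, 0.76 over those above log2 7 and 0.83 over the 2179 brightest. The range was under 1 for 91.53% of the ribosomal protein genes, for 85.39% of all probe sets and for 74.03% of those above log2 7. Apart from the dim Rpl39l, the members with a range above 1 were Rps3 (1.22), Rpl26 (1.03), Rps15 (1.02) and Rpl14 (1.01). The filter in the study's methods, on level and variability together, kept 5 of the 59, or 8.47%. It kept 14.12% of all probe sets and 42.05% of those above log2 7. The map of levels by array shows this narrow spread and the 1 array that departs from it.

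**Figure D1:**
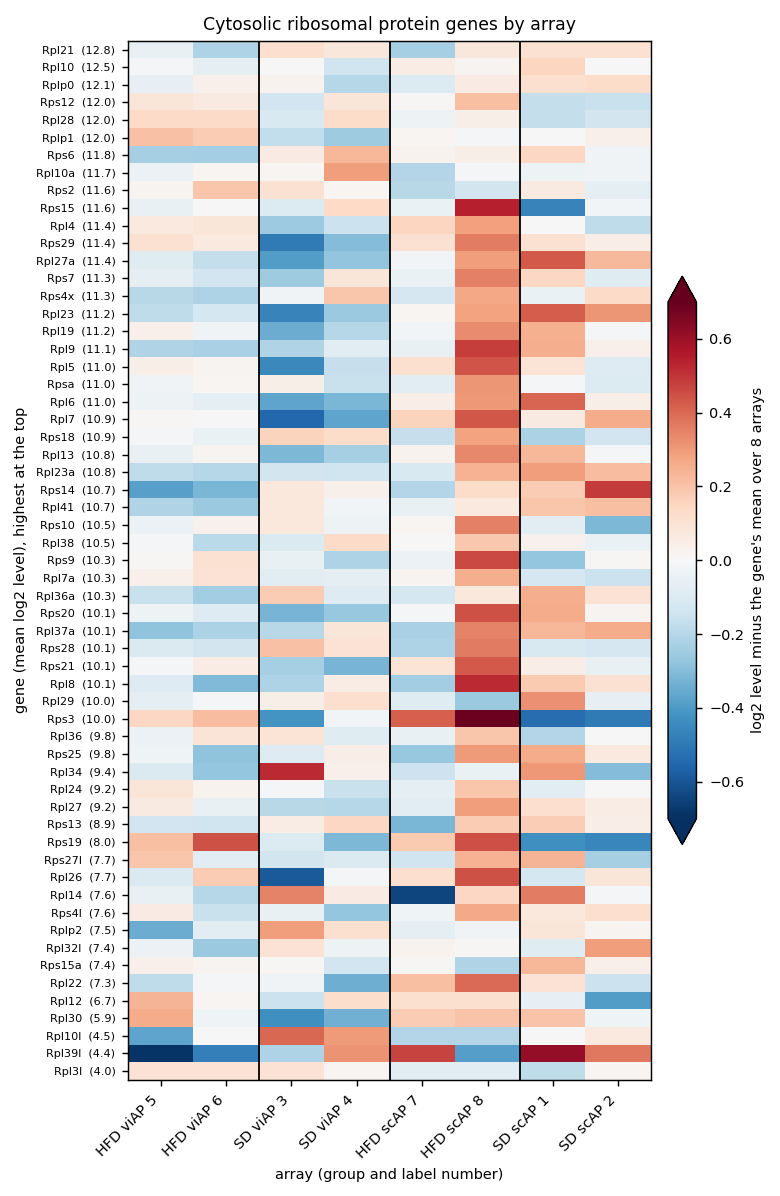
Level of each of the 59 ribosomal protein genes (rows, with the mean log2 level in brackets) on each of the 8 arrays (columns), as log2 level minus the gene's own mean; the colours stop at 0.7 in either direction. HFD scAP 8 was the highest array for 33 of the 59 genes, and Rps3 and Rps19 were highest in the HFD columns.

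That array was HFD scAP 8. It was the highest of the 8 arrays for 33 of the 59 genes, a place it held for 9.07% of all probe sets. The median level of the 59 genes was 10.39 on HFD scAP 7 and 10.65 on HFD scAP 8, and between 10.25 and 10.44 on the other 6 arrays. Within the pair, 50 of the 59 genes were higher on HFD scAP 8, by a median of 0.27, with 29 of the 37 large subunit and 21 of the 22 small subunit genes on that side. Over all probe sets the median difference within that pair was 0.00 and 42.89% were higher on HFD scAP 8. In the other pairs the median difference over the 59 genes lay between -0.08 and 0.03. The side was shared by 58 of 77 mitochondrial ribosomal protein genes and 27 of 40 translation factors. Precursor markers differed within the pair as well, Dpp4 with 10.26 on HFD scAP 7 and 11.13 on HFD scAP 8 and Icam1 with 10.60 and 10.03 on the same arrays, and their part was not tested.

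In viAPs, the changes of ribosomal protein mRNAs under HFD lay on both sides of 0, and none was called. The count was 0 of 59 in either direction, where 8.45% of all probe sets were called higher and 1.95% lower. At an unadjusted p under 0.05 limma gave 6 higher and 4 lower, where 17.8% and 11.6% of all probe sets were. The median change was 0.05, with 33 changes above 0 (55.9%) and 26 below, and 43.5% of all probe sets were above 0. The median change was 0.30 over the probe sets above log2 7 and 0.39 over the 2179 brightest. Of the 54 ribosomal protein genes above log2 7, 47 (87%) changed by less than the median of the probe sets above log2 7. Without SD viAP 4 the median was 0.00 and the count was 0. The count depended on the scaling and filter. After a further quantile normalization Rpl34, Rpl36a, Rpl41 and Rplp2 were called lower. With each array centred on its median Rpl30, Rpl7, Rplp1, Rps19 and Rps29 were called higher. With log2 of the value plus 16, the filter above log2 7 or the methods' filter, some of the latter genes were called higher. The changes ran from -0.63 for the dim Rpl39l to 0.53 for Rps19.

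Rps29, a zinc-binding protein of the small subunit, had 11.50 and 11.46 in HFD viAPs, against 10.90 and 11.09 in SD viAPs. The 2 groups did not overlap, a change of 0.49 (SE 0.14, limma adjusted p = 0.0595). Rplp1, an acidic protein of the stalk that draws elongation factors to the ribosome, had 12.16 and 12.14 in HFD viAPs, against 11.79 and 11.71 in SD viAPs. These groups lay apart too, with a change of 0.40 (SE 0.12, limma adjusted p = 0.064). Its stalk partner Rplp2 differed the other way, with 7.14 and 7.41 in HFD viAPs against 7.78 and 7.60 in SD viAPs (change -0.42, SE 0.14, limma adjusted p = 0.0946). Rps6, the small subunit protein that S6 kinase phosphorylates, had 11.53 and 11.53 in HFD viAPs, against 11.83 and 12.00 in SD viAPs (change -0.38, SE 0.13, limma adjusted p = 0.0946). The other changes among the 5 largest in either direction were 0.50 for Rpl30, 0.46 for Rpl7, -0.53 for Rpl10l, -0.46 for Rpl34 and -0.40 for Rps14. Without SD viAP 4 that of Rpl34 was -0.70 and that of Rpl39l -0.37, and with any 1 array left out that of Rpl34 lay between -0.70 and -0.22. Rplp1's other probe set gave 0.09, and the 8 probe sets of Rps6 gave -0.38 to -0.03. HFD and SD viAPs did not overlap for 22 of the 59 genes in the direction of HFD and for 19 in that of SD, 37.3% and 32.2%, and the same held for 28.9% and 31.2% of all probe sets.

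In scAPs 1 of the 59 genes, Rps3, was called. The count was 1 of 59 higher and 0 lower, where 1.06% of all probe sets were called higher and 0.11% lower, and limma gave 4 higher and 1 lower at an unadjusted p under 0.05, where 10.8% and 5.89% of all were. The median change was 0.03, against 0.18 over the probe sets above log2 7 and 0.25 over the 2179 brightest. This median turned with 1 array, being -0.08 without HFD scAP 8 and 0.20 without HFD scAP 7. It was -0.02 over the large subunit and 0.14 over the small subunit. HFD and SD scAPs did not overlap for 12 genes in the direction of HFD (20.3%) and 11 in that of SD (18.6%), and the same held for 21.7% and 18.8% of all probe sets.

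Rps3, a small subunit protein at the entry of the mRNA channel that is also known as a DNA repair protein, was the gene with the clearest change. It had 10.39 and 10.65 in HFD scAPs, against 9.43 and 9.47 in SD scAPs. Both HFD scAP arrays lay well above both SD arrays, a change of 1.07 (SE 0.16, 95% interval 0.69 to 1.44, limma adjusted p = 0.0313). With any 1 of the 8 arrays left out the adjusted p lay between 0.0504 and 0.284 and the call was lost, as it was after quantile normalization (limma adjusted p = 0.0786) and with the 4 scAP arrays alone (0.263). In viAPs it had 10.11 and 10.18 under HFD, against 9.55 and 9.95 under SD. These groups did not overlap either, with a change of 0.40 that was not called and lay between 0.20 and 0.60 with 1 array left out. The viAP change minus the scAP change was -0.67 (SE 0.23, unadjusted p = 0.0192, limma adjusted p = 0.599).

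Rps19, a small subunit protein needed for the maturation of 18S rRNA and mutated in Diamond-Blackfan anaemia, was the gene after it. It had 8.23 and 8.50 in HFD scAPs, against 7.62 and 7.59 in SD scAPs. The groups lay apart by a change of 0.76 (SE 0.15, limma adjusted p = 0.0572). In viAPs it had 8.26 and 8.50 under HFD, against 7.95 and 7.73 under SD, again without overlap and with a change of 0.53 (SE 0.15, limma adjusted p = 0.0611). The other changes among the 5 largest in scAPs were 0.49 for Rps15, 0.38 for Rps10 and 0.34 for Rps9, and -0.45 for Rpl39l, -0.43 for Rpl14, -0.38 for Rps14, -0.30 for Rpl29 and -0.24 for Rpl10l, none of them called. Most of these rested on single arrays. With 1 array left out the change of Rps15 lay between 0.20 and 0.79, that of Rps9 between 0.09 and 0.59, that of Rpl14 between -0.82 and -0.03, that of Rpl39l between -0.88 and -0.02 and that of Rpl29 between -0.49 and -0.12, where those of Rps15, Rps9 and Rpl39l were smallest without HFD scAP 8 and that of Rpl14 without HFD scAP 7. Rps15 was 11.55 and 12.14 in HFD scAPs, against 11.13 and 11.58 in SD scAPs, so its groups overlapped. Panels for single genes show these levels array by array.

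**Figure D2:**
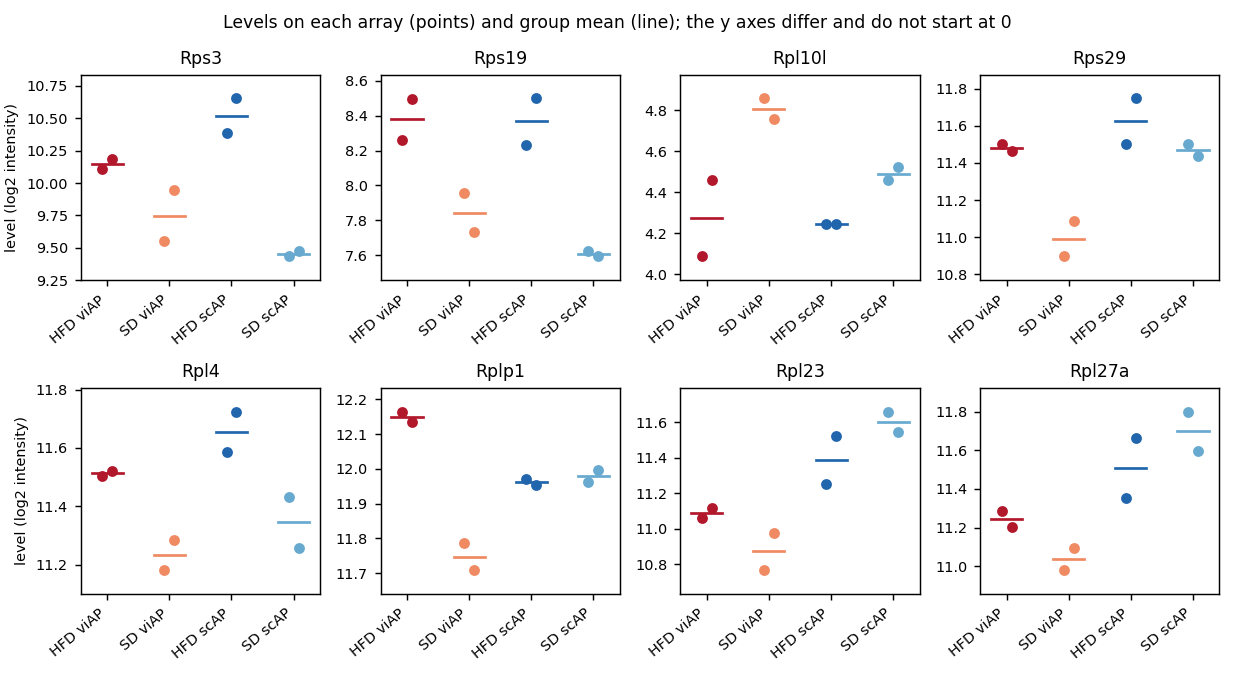
Level (log2 intensity, a separate axis for each gene) on each array (points) and the mean of each group (lines, n = 2 arrays) for Rps3, Rps19, Rpl10l, Rps29, Rpl4, Rplp1, Rpl23 and Rpl27a. For Rps3 and Rps19 all 4 HFD arrays lie above all 4 SD arrays, and for Rpl23 and Rpl27a both SD viAP arrays lie below both SD scAP arrays.

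The mean of both diet changes weighs all 8 arrays. Its p-values treat these arrays as independent, and whether visceral and subcutaneous pools shared mice is not stated. Over both depots 2 of 59 genes were called higher and 2 lower, where 12.1% of all probe sets were called higher and 4.96% lower. At an unadjusted p under 0.05 limma gave 9 higher and 5 lower, where 19.4% and 14.3% of all were. Rps3 rose by 0.73 (SE 0.12, limma adjusted p = 0.00589) and Rps19 by 0.65 (SE 0.11, limma adjusted p = 0.00724). Rps14, a small subunit protein lost in the human 5q- syndrome, fell by 0.39 (SE 0.11, limma adjusted p = 0.0482) on the probe set that stands for it. The other called gene was Rpl10l (change -0.39, SE 0.11, limma adjusted p = 0.0385), but its level lay at percentile 18.81 of all probe sets and there was no test of its signal against background, so whether its mRNA was measured is not known. It was dim throughout, with 4.09 and 4.46 in HFD viAPs against 4.86 and 4.75 in SD viAPs, and 4.25 on both HFD scAP arrays against 4.46 and 4.52 in SD scAPs. Its partner Rpl10, the broadly used gene, had a change of -0.01 (SE 0.09). None of the 4 called changes reached 2-fold over both depots.

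The calls differed in how they stood up. Rps19 stayed called with each of the 8 arrays left out, at an adjusted p of 0.0146 to 0.0466, and under each scaling and filter tried. Rps3 lost its call only without HFD viAP 5, where the adjusted p was 0.0515. Of the fits with 1 array left out, Rpl10l kept its call only in that without HFD viAP 6, and Rps14 only in that without SD scAP 1. Rpl10l also lost it after quantile normalization (limma adjusted p = 0.177), centring (0.112) and with log2 of the value plus 16 (0.0579). Rps14 lost it after centring (0.137) and with the median of its probe sets, where the change was -0.02 (limma adjusted p = 0.919). All 4 HFD arrays lay above all 4 SD arrays for 4 genes and below them for 2, which is 6.78% and 3.39% of the 59, and the same held for 11% and 7.24% of all probe sets. Rpl4, which lines the exit tunnel of the large subunit, was among the genes that were not called, with 11.50 and 11.52 in HFD viAPs against 11.18 and 11.28 in SD viAPs, and 11.58 and 11.72 in HFD scAPs against 11.43 and 11.26 in SD scAPs. Its 4 HFD arrays all lay above its 4 SD arrays, by a mean of 0.29 (SE 0.09, limma adjusted p = 0.0592). Genes with the pyrimidine letters in a listed window had a median change over both depots of 0.02 (31 genes), and those without 0.02 (16 genes).

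Against other expressed genes the ribosomal protein genes stood low under HFD. Over both depots their median change was 0.03, that of the probe sets above log2 7 was 0.24 and that of the 2179 brightest 0.32. Of the 54 members above log2 7, 45 (83.3%) changed by less than the median of the probe sets above that level, and in scAPs 40 of 54 (74.1%) did so. The sign of the members' own median depended on how arrays were scaled. After a further quantile normalization it was -0.16, with 3 genes called higher and 8 lower, and with each array centred on its median it was 0.15, with 9 called higher and 0 lower. Centring also moved the median of all probe sets in viAPs, which was 0.09 after it and -0.05 before. The distance to the other expressed genes was -0.20 as deposited and -0.22 after quantile normalization. Centring shifts all probe sets of an array alike, so it cannot change this distance and is no check of it.

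Other parts of the translation machinery were set beside these genes, with no test of the difference between lists. Of 40 translation factors, 9 were called higher in viAPs, 3 in scAPs and 13 over both depots, and 0 lower in each. These counts are 22.5%, 7.5% and 32.5% of the factors, against 20.6%, 2.67% and 29.8% of the probe sets above log2 7 and 8.45%, 1.06% and 12.1% of all. Of the 2179 brightest probe sets, 29.6%, 4.18% and 39.7% were called higher. The median changes of the factors were 0.41 in viAPs, 0.30 in scAPs and 0.36 over both depots. Those of the 2179 brightest were 0.39, 0.25 and 0.32. Eif3e, a subunit of the initiation factor that binds the small subunit, had 9.36 and 9.23 in HFD viAPs against 8.37 and 8.58 in SD viAPs, and 9.52 and 9.79 in HFD scAPs against 8.69 and 8.53 in SD scAPs. All its HFD arrays lay above all its SD arrays, with a change over both depots of 0.93 (SE 0.11, limma adjusted p = 0.00208). The initiation scaffold Eif4g3 rose by 0.89, Eif3c by 0.85 and the release factor Etf1 by 0.74 over both depots.

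Of 21 regulators of ribosomal protein synthesis and growth, 4 were called higher in viAPs, 0 in scAPs and 8 over both depots, and 0 lower in each. In viAPs this was 19%, against 20.6% of the probe sets above log2 7 and 8.45% of all. Over both depots it was 38.1%, against 29.8% of the probe sets above log2 7 and 12.1% of all. In scAPs limma gave 8 higher and 0 lower at an unadjusted p under 0.05, or 38.1%, against 25.6% of the probe sets above log2 7. Myc had 12.37 and 12.33 in HFD viAPs against 11.75 and 11.56 in SD viAPs, and 12.23 and 12.02 in HFD scAPs against 11.61 and 11.52 in SD scAPs. It rose by 0.63 over both depots (SE 0.10, limma adjusted p = 0.00532), with all HFD arrays above all SD arrays. Rptor, the subunit that brings substrates to mTOR complex 1, rose by 0.76, Mdm2, the p53 ligase that free ribosomal proteins bind, by 0.62, Rps6ka3, a kinase of Rps6, by 0.62, and Larp1 by 0.46. Of 77 mitochondrial ribosomal protein genes, 3 were called higher and 3 lower over both depots, where 12.1% and 4.96% of all probe sets were. The median change of the 77 genes was -0.01. Mrps30 rose by 0.50 and Mrpl24 by 0.38, while Mrpl11 fell by 0.42 and Mrpl4 by 0.41. The plot of changes by list sets these groups side by side.

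**Figure D3:**
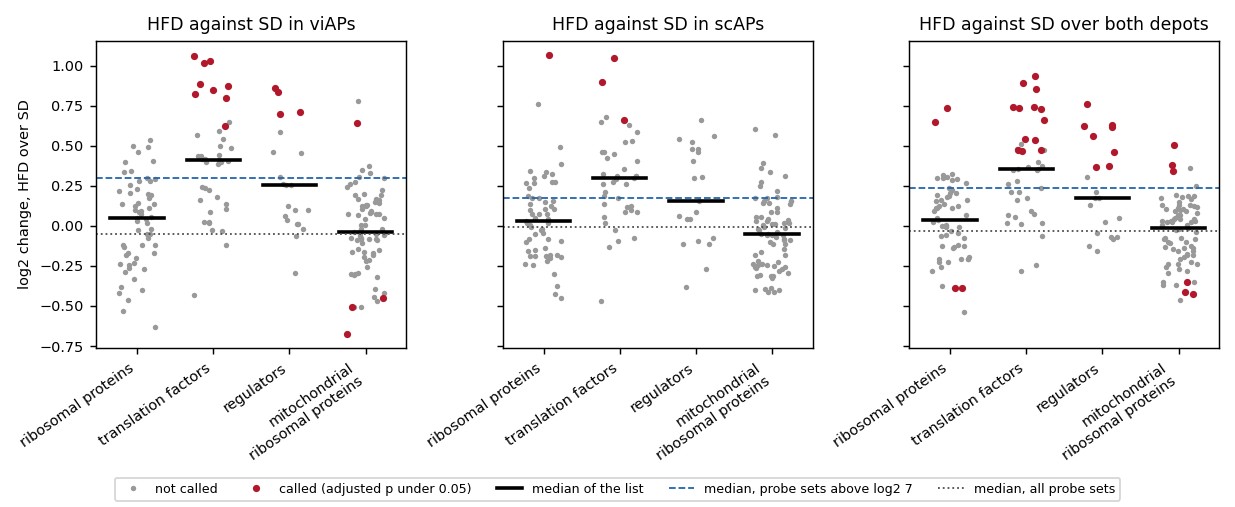
Change (log2, HFD over SD) of each gene of 4 lists in viAPs, in scAPs and over both depots; red points were called, black bars are list medians, and the lines mark the median of all probe sets and of those above log2 7. The ribosomal protein medians (0.05, 0.03 and 0.03) lie below the dashed line (0.30, 0.18 and 0.24) in each panel, and the translation factor medians (0.41, 0.30 and 0.36) above it.

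Forms of 1 ribosomal protein that are made from separate genes were compared where both were measured. Rpl7 had a change over both depots of 0.30 (limma adjusted p = 0.085), and its relative Rpl7l1, a factor of large subunit assembly, rose by 0.40 (SE 0.10, limma adjusted p = 0.031). Rps4x and Rps4l had changes of -0.13 and 0.07, neither called. Rps27l, which p53 induces, had a change of 0.11 and Rpl3l one of 0.02, and their partners were not measured. Of other ribosomal genes whose symbols fall outside the rule, Rsl24d1, a large subunit assembly factor, rose by 0.44 (SE 0.11, limma adjusted p = 0.0314), and Rps3a1 and Fau had changes of 0.15 and -0.11 that were not called.

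Many ribosomal protein genes had several probe sets, and in the diet comparisons these often went apart. The 59 genes had 215 probe sets with 203 distinct profiles, up to 14 for Rps12, and 20 genes had only 1. Among 38 genes with several distinct profiles, the probe sets gave changes of both signs for 20 in viAPs, 22 in scAPs and 24 over both depots. For the differences between the depots they gave both signs for 5 of the 38 on HFD and for 10 on SD. The distance between the highest and the lowest change of a gene had a median of 0.24 over both depots and reached 0.82 for Rps21. Ribosomal protein genes have many processed pseudogenes of near-identical sequence, and the annotation used here does not say which copies a probe set matches, so values for genes whose probe sets disagree are uncertain.

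Rps14 was such a gene. Its brighter probe set, which gave the call, had 10.37 and 10.43 in HFD viAPs against 10.82 and 10.78 in SD viAPs, and 10.54 and 10.87 in HFD scAPs against 10.93 and 11.24 in SD scAPs. Its dimmer one had 9.89 and 9.90 in HFD viAPs against 9.53 and 9.84 in SD viAPs, and 9.96 and 10.56 in HFD scAPs against 9.65 and 9.92 in SD scAPs. The groups lay apart in both probe sets and in both depots, but in opposite directions, with a change over both depots of -0.39 for the brighter and 0.34 for the dimmer. Rps21 had 0.28 from its brighter and -0.54 from its dimmer probe set (limma adjusted p = 0.0181 for the dimmer). Rps3 and Rps19 each had 1 probe set, so their changes have no such check. For Rpl7, all 4 probe sets gave changes above 0, and 2 of them were called over both depots (0.38 and 0.37). Over all 215 probe sets 0 were called in viAPs, 1 in scAPs, and 5 higher and 4 lower over both depots.

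**Figure D4:**
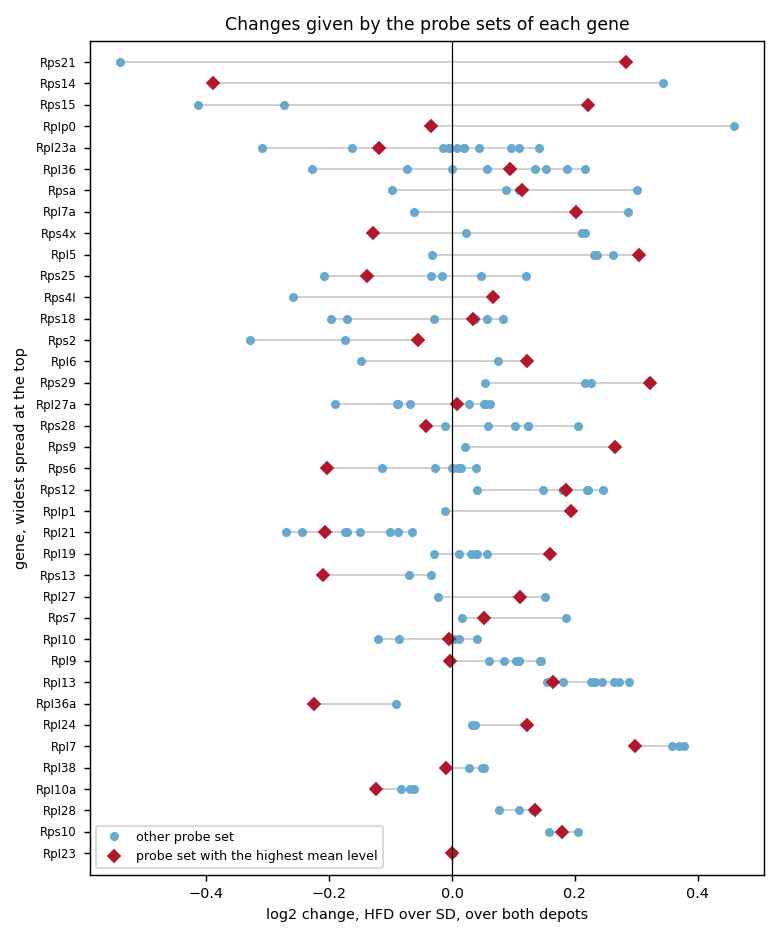
Change over both depots (log2, HFD over SD) of every probe set of the 38 ribosomal protein genes with several distinct profiles (rows, the widest spread at the top); diamonds mark the probe set that stands for the gene. Rps21, Rps14 and Rplp0 each had probe sets on opposite sides of 0, and those of Rpl7 and Rpl13 all lay above 0.

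Rplp0, the scaffold of the stalk, was the gene to which the study normalized its Q-PCR measurements. It had 12.06 and 12.15 in HFD viAPs against 12.14 and 11.92 in SD viAPs, and 12.02 and 12.17 in HFD scAPs against 12.23 and 12.24 in SD scAPs. The viAP groups overlapped, and both HFD scAP arrays lay below both SD scAP arrays by little. The change was 0.07 in viAPs (95% interval -0.23 to 0.38), -0.14 in scAPs (-0.45 to 0.17) and -0.03 over both depots (-0.25 to 0.18), with a range over the 8 arrays of 0.32. Its other probe set, with a mean of 11.57, gave a different picture: 11.78 and 11.75 in HFD viAPs against 11.13 and 11.56 in SD viAPs, and 11.78 and 11.89 in HFD scAPs against 11.37 and 11.32 in SD scAPs. All HFD arrays lay above all SD arrays there, by 0.46 over both depots (SE 0.11, limma adjusted p = 0.0269). On that probe set the levels ran from 11.13 to 11.89 over the 8 arrays. Which probe set matches the Q-PCR product was not tested.

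Among 17 genes in wide use as Q-PCR references, Rplp0 and Tbp had the narrowest ranges over the 8 arrays, 0.32 each. Next came Polr2a with 0.48, Rpl27 with 0.49, Rps18 with 0.50, Ywhaz with 0.55 and Gusb with 0.64. Wider ranges were found for Actb (0.75), Nono and Ppia (0.76 each), Hprt (0.78), Tfrc (0.80), Sdha and Rps29 (0.85 each) and Eef2 (0.96). Pgk1 (1.17) and B2m (1.57) varied most. These ranges are for 1 probe set per gene, the one with the highest mean. Levels of the other Rplp0 probe set spread more widely than 0.32. Over both depots 5 of the 17 were called, all higher under HFD, and these were Pgk1 (0.81, SE 0.11), Tfrc (0.46, SE 0.13), Actb (0.45, SE 0.11), Nono (0.44, SE 0.10) and Ppia (0.43, SE 0.09), with limma adjusted p-values of 0.00395 to 0.0393. This was 29.4%, near the 29.8% of the probe sets above log2 7, and 12.1% of all were. Tfrc was dim, with a mean of 4.61 at percentile 21.72 of all probe sets, so whether its mRNA was measured is not known. In viAPs 3 of the 17 were called higher (17.6%, against 20.6% of the probe sets above log2 7) and in scAPs 0. At an unadjusted p under 0.05 limma gave 3 higher and 0 lower in scAPs, where 25.6% and 2.64% of the probe sets above log2 7 were. The 4 ribosomal protein genes on the list, Rplp0, Rpl27, Rps18 and Rps29, were not called in any of the 3 diet comparisons. This holds for the probe sets that stand for them, and the other probe set of Rplp0 was called higher over both depots.

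**Figure D5:**
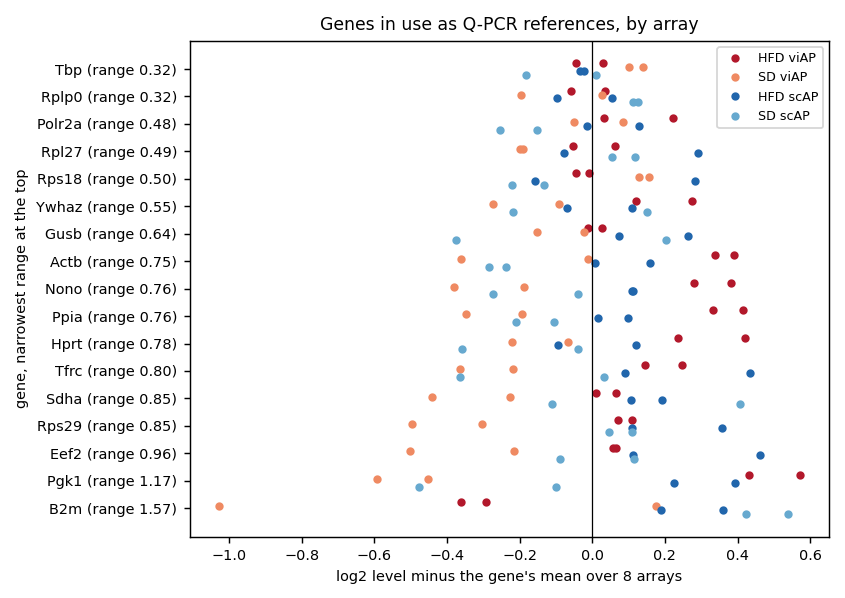
Level of 17 genes in use as Q-PCR references on each array (log2, minus the gene's own mean over 8 arrays), 1 row a gene with the narrowest range at the top; colours mark the 4 groups. Tbp and Rplp0 have ranges of 0.32 and B2m one of 1.57, each on the gene's probe set with the highest mean.

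No ribosomal protein gene was called between the depots. On SD no probe set of any kind was called, so that count cannot show whether the difference was small. On SD the count was 0 of 59, as it was for all probe sets (0%), with 0 higher and 10 lower in viAPs at an unadjusted p under 0.05 in limma, where 4.99% and 6.65% of all probe sets were. The median difference, SD viAPs minus SD scAPs, was -0.11, and it was -0.09 without SD viAP 4. It was -0.08 over the probe sets above log2 7 and -0.11 over the 2179 brightest, and of the brightest 17.3% were lower at an unadjusted p under 0.05 in limma, near the 16.9% of the 59. Rpl23, a large subunit protein that binds Mdm2 when free, had 10.77 and 10.98 in SD viAPs, against 11.66 and 11.55 in SD scAPs. The groups lay apart by -0.73 (SE 0.14, unadjusted p = 0.000797, limma adjusted p = 0.28). Rpl27a, with the pyrimidine letters in its window, had 10.98 and 11.10 in SD viAPs, against 11.80 and 11.60 in SD scAPs. This difference was -0.66 (SE 0.15, limma adjusted p = 0.28). The next differences were -0.62 for Rpl7, -0.57 for Rpl6 and -0.48 for Rps29, and the largest in the other direction was 0.32 for Rps18. Without SD viAP 4 these were -0.71, -0.60, -0.57 and 0.33, and those of Rpl23 and Rpl27a -0.84 and -0.72. SD viAPs lay below SD scAPs without overlap for 25 of the 59 genes and above them for 11, 42.4% and 18.6%, against 15.9% and 16.9% of all probe sets and 27.3% and 14.2% of those above log2 7.

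On HFD, 0 of 59 genes were called between the depots, where 1.07% of all probe sets were called higher in viAPs and 0.436% lower. At an unadjusted p under 0.05 limma gave 0 higher and 2 lower, Rpl22 with -0.40 and Rpl9 with -0.43, where 6% and 4.51% of all probe sets were. Without HFD scAP 8 that of Rpl9 was -0.17 and that of Rpl22 -0.31. The median difference, HFD viAPs minus HFD scAPs, was -0.17. Of the 59 genes 13 were above 0 (22%) and 46 below, where 46.7% of all probe sets were above 0. That median was -0.02 without HFD scAP 8. HFD viAPs lay below HFD scAPs without overlap for 24 genes (40.7%) and above them for 6 (10.2%), against 20% and 20.3% of all probe sets. The diet changes of the 2 depots were compared directly as the viAP change minus the scAP change. Here too 0 of 59 were called, against 1 of all 21789 probe sets (0.00459%), and limma gave 1 higher, Rplp1 with 0.42, and 1 lower, Rps3 with -0.67, at an unadjusted p under 0.05, where 4.41% and 2.93% of all probe sets were. The median was -0.03, and it was 0.10 without HFD scAP 8 and -0.14 without HFD scAP 7.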

How the data were processed

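RNA of bead-purified APs was hybridised to 8 arrays, 2 in each of 4 groups, and conditions were taken from the sample labels. The deposited table holds linear intensity values, whole numbers from 4 to 18487, for 35556 probe sets. The authors made them with quantile normalization and RMA summaries. RMA and Affymetrix Expression Console 1.1 are named in the submitters' processing notes, the R package oligo in the paper's methods, and the antilog and rounding are not given in the sources used here. Their log2 was used without another scaling. Of the probe sets, 21789 carry 1 symbol, 1621 several and 12146 none, and only the first kind was used. All 59 members matched RefSeq by Entrez ID, with 0 symbols changed.

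Linear models with a mean for every group were fitted in limma 3.58.1 (R 4.3.3; lmFit, contrasts.fit, eBayes) to the 8 arrays together, which left 4 residual degrees of freedom beside 4.58 from the prior. Benjamini-Hochberg adjustment covered the 21789 probe sets. The methods' filter, which asks for log2 above 7 on 3 or more arrays and for high variability, left 3076 probe sets and 5 members and was therefore used as an alternative. The other alternatives were a further quantile normalization, centring, log2 of the value plus 16, a filter on level alone, other probe sets per gene, the compared arrays alone and leaving out each array. The fits were tested on simulated data. Probe sets above log2 7 on 3 or more arrays (7315) and the 2179 brightest (a mean of 8.52 or more) are given as descriptions. Named genes are Rplp0, the called members, the 5 largest changes in each direction where fewer than 5 were called, the 5 brightest and 5 dimmest members, paralogs, the reference list and up to 4 called genes of other lists. Rps6, Rpl4, Rps21, Larp1 and the genes with a range above 1 were named after their values were seen. The members and lists were chosen with earlier results of these data known. With 2 arrays a group, precision is limited throughout.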

Additional observations from a re-analysis of the deposited data

How the results depend on the processing

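No paired analysis was made, because no 2 groups have an array number in common in the labels. Whether visceral and subcutaneous pools came from the same mice is not stated, so any pairing between the depots is unknown. The p-values over both depots and between the depots treat the arrays as independent. A further quantile normalization gave 4 members called in viAPs (0 higher, 4 lower), 0 in scAPs and 11 over both depots, with medians of -0.18, -0.10 and -0.16, medians of translation factors of 0.13 in viAPs and 0.15 over both depots, and medians of regulators of 0.0021 and 0.0099. Centring gave 5, 2 and 9 called, medians of 0.19 in viAPs and 0.15 over both depots, and medians of mitochondrial ribosomal proteins of 0.11 (0.105) and 0.11 (0.1067). The log2 of the value plus 16 gave 2, 2 and 7 called (5 higher and 2 lower over both depots), the filter above log2 7 gave 3 in viAPs and 2 in scAPs, and the 4 scAP arrays alone gave 0. The methods' filter, with 5 members left, gave 1, 2 and 2 called and medians of 0.22 in viAPs, -0.19 in scAPs, -0.30 between depots on HFD and -0.30 on SD. Rps14 turned to 0.34 over both depots with its dimmer probe set. The median over a gene's probe sets, the scalings of the other lists and the leave-one-out ranges of Rplp0 were added after seeing the data. Except where the setting itself leaves fewer genes or arrays, the cause of these shifts was not tested.

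With 1 array left out, the members called were 0 to 1 in viAPs, 0 to 0 in scAPs and 1 to 4 over both depots, and 0 in the other 3 comparisons. The medians lay between 0.0006 and 0.05 in viAPs, -0.084 and 0.20 in scAPs, -0.0071 and 0.14 over both depots, -0.14 and 0.10 for the viAP minus the scAP change, -0.29 and -0.019 between depots on HFD and -0.18 and -0.06 on SD. The range of Rplp0 lay between 0.22 and 0.32. Rplp1 was the gene called in viAPs without either SD scAP array. Over all these alternatives, 164 of the counts, medians and ranges stayed close to the main value and 53 moved. Of the values of single members, 730 kept their direction and side of the threshold, 96 moved, 24 newly passed it, 30 no longer passed it and 1 reversed.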
